A study of Homo sapiens with 30 samples.

Results

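The 42 genes described here belong to the cellular response to low oxygen and to glycolysis. They were taken by name from the deposited expression table, which holds 26801 genes, and all 42 names were found. Polyadenylated RNA of A549, an established human lung adenocarcinoma line, gave 30 libraries, 3 for each of 10 groups. The series concerns a magnetic field and RSRP1, a serine- and arginine-rich protein, and 6 groups (18 libraries) carry an RSRP1 knockout while 4 groups (12 libraries) are wild type. The groups are KOA, iR_KOA and iR_KOA_D3 for the knockout and iR_WTA and iR_WTA_D3 for the wild type, each with exposed libraries (EX, a magnetic exposure labelled 2 H) and unexposed libraries (NE). What iR and D3 stand for the labels leave unexplained, and both are kept as names, and a wild type without iR was not analysed here. The labels do not say whether the knockout is a single clone or whether the libraries of a group came from separate cultures. The p-values therefore cover the spread among these libraries alone, and that spread may be technical.

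In well-oxygenated cells the prolyl hydroxylases EGLN1 and EGLN3 mark the alpha subunits of the hypoxia-inducible factors, HIF1A and EPAS1, for destruction. When oxygen falls, the alpha subunits persist, pair with ARNT and bind promoters and enhancers that hold the core letters ACGTG or GCGTG. Their targets import glucose, run glycolysis, export lactate and protons, remove mitochondria, restrain growth and modify collagen. HIF alpha protein is controlled mainly by its stability, which RNA levels do not report, and tumour cells express many of these genes in normal oxygen.

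Values are FPKM, fragments scaled by transcript length and by the mapped fragments of the library, and differences are on the log2(FPKM + 1) scale. A gene was tested where at least 3 libraries reached 1 FPKM, which 12086 genes did, and it passed the threshold where its adjusted p, from limma with the Benjamini-Hochberg method over all tested genes, was under 0.05. Of the 42 members 40 were tested. HK2, a hexokinase, ranged over 0.0148 to 0.353 FPKM and LOX, lysyl oxidase, over 0.0257 to 0.218, and neither reached 1 FPKM in any library. Among the tested members ANGPTL4 reached 1 FPKM in 3 libraries, PDK1 in 4, PFKFB4 in 16, ANKRD37 in 18 and CA9 in 19, so these 5 passed the filter through the groups in which they were higher.

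Read totals recovered from the values were 34620432 to 38939336 per library. RSRP1 ranged over 2.09 to 7.95 FPKM in the 18 knockout libraries and over 37.4 to 63.4 in the 12 wild-type libraries, which do not overlap. The A549 markers KRT8 (892 to 1400.0 FPKM), ALDH1A1 (2740.0 to 4920.0) and AKR1B10 (830.0 to 1420.0) were abundant in all libraries, while EPCAM was at 0.402 to 1.85 FPKM and KRT19 at 0.0194 to 22.8. The alveolar markers SFTPC, SFTPB and NKX2-1 stayed at or below 0.292 FPKM. Of the leukocyte, endothelial and fibroblast markers PTPRC, PECAM1, DCN and PDGFRB stayed at or below 0.0411. From the same list CDH5 reached 1.29 FPKM, COL1A1 ranged over 0.443 to 3.71 and CD68 over 23.7 to 39.6. The 8 epithelial markers summed to 7270.0 to 8270.0 FPKM in the knockout libraries and to 5560.0 to 6580.0 in the wild type. Mitochondrially encoded genes held 24.4 to 29.4% of all FPKM in the knockout groups (group means) and 20.9 to 22.9% in the wild type, and in KOA the share was 28.4% ± 1.26 unexposed and 24.4% ± 1.01 exposed (SD, n = 3). The part of these shifts in the gene differences below was not tested.

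The letters ACGTG or their reverse complement stood within the 250 bases before the RefSeq start site (GRCh38.p14) in 18 of the 38 members with an entry in the promoter table, or 47.4%. Among all 27305 promoters in that table the share was 18.7%, and among the 9705 promoters of tested genes 23.9%. The letters GCGTG, searched the same way, stood in 42.1% of member promoters, 31.9% of all and 45.8% of tested genes. NDRG1, VEGFA, BNIP3L and SLC2A3 had no entry. Short stretches are shown for 3 members that were higher after exposure in every background (P4HA1, PLOD2, DDIT4) and for 4 that were higher with D3 in the knockout (CA9, PGK1, LDHA, BNIP3), with each ACGTG match, on either strand, in capitals (GCGTG matches are left in lower case) and each sequence 5′ to 3′ on the strand of its gene.
P4HA1: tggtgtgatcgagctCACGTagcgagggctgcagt
PLOD2: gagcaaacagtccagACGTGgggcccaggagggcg
DDIT4: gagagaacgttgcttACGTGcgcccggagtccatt
CA9: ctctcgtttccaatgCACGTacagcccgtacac
PGK1: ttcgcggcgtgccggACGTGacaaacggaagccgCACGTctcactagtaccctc
LDHA: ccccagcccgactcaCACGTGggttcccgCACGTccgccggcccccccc
BNIP3: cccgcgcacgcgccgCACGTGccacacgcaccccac
The stretches lie at chr10:73096933-73096967 (P4HA1, minus strand), chr3:146161311-146161345 (PLOD2, minus strand), chr10:72273784-72273818 (DDIT4, plus strand), chr9:35673895-35673927 (CA9, plus strand), chrX:78104031-78104084 (PGK1, plus strand), chr11:18394461-18394509 (LDHA, plus strand) and chr10:131982037-131982072 (BNIP3, minus strand). Of members with an entry that were higher after exposure, 4 of 6, 3 of 5, 4 of 5, 4 of 7 and 3 of 5 held ACGTG in KOA, iR_KOA, iR_KOA_D3, iR_WTA and iR_WTA_D3, against 1 of 9, 1 of 9, 4 of 16, 2 of 9 and 3 of 13 that were lower. Among those that did not pass, 11 of 21, 12 of 22, 8 of 15, 10 of 20 and 10 of 18 held it. Of those higher by genotype the letters stood in 8 of 22 without D3, against 6 of 8 that did not pass, and in 10 of 24 with D3, against 2 of 4. Of those higher with D3 they stood in 5 of 12 in the wild type, against 10 of 20 that did not pass, and in 10 of 21 in the knockout, against 5 of 12. A match says only that the letters are there.

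The members spanned more than 5 orders of magnitude of FPKM, and the enzymes of the glycolytic chain stood highest. GAPDH, which oxidises glyceraldehyde 3-phosphate, ranged over 2850.0 to 3660.0 FPKM, followed by PKM, the pyruvate kinase, at 949.6 to 1499, ENO1, the enolase, at 658 to 889.5, LDHA, which turns pyruvate into lactate, at 521 to 802, and TPI1, the triose isomerase, at 419 to 588. These 5 ranges followed each other in that order over the 30 libraries with an overlap only between ENO1 and LDHA and between LDHA and TPI1. Where several genes encode one step, 1 of them led: ENO1 was far above ENO2 (15.5 to 40.9 FPKM), HK1 (14.2 to 25.4) above HK2, and PFKP (38.5 to 88.9) above PFKL (14.8 to 27.8). ALDOA, usually the main aldolase of such cells, was listed at only 3.29 to 11.0 FPKM, close to the range of ALDOC (3.69 to 35.4). A RefSeq readthrough gene, LOC112694756, overlaps ALDOA, and reads shared by overlapping genes may have been lost or moved in the counting. The lengths implied by reads and FPKM, 15.19 kb for PDK1 and 11.04 kb for GPI, place their FPKM low beside genes of ordinary length. GAPDH, PGK1, ENO1, PKM, LDHA, TPI1 and PGAM1 have near-identical processed copies in the genome, so their reads are uncertain to that extent. The 42 members together held 1.71 to 2.15% of all FPKM (group means), and the 12 enzymes from GPI to PKM 1.33 to 1.61%.

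**Figure D1:**
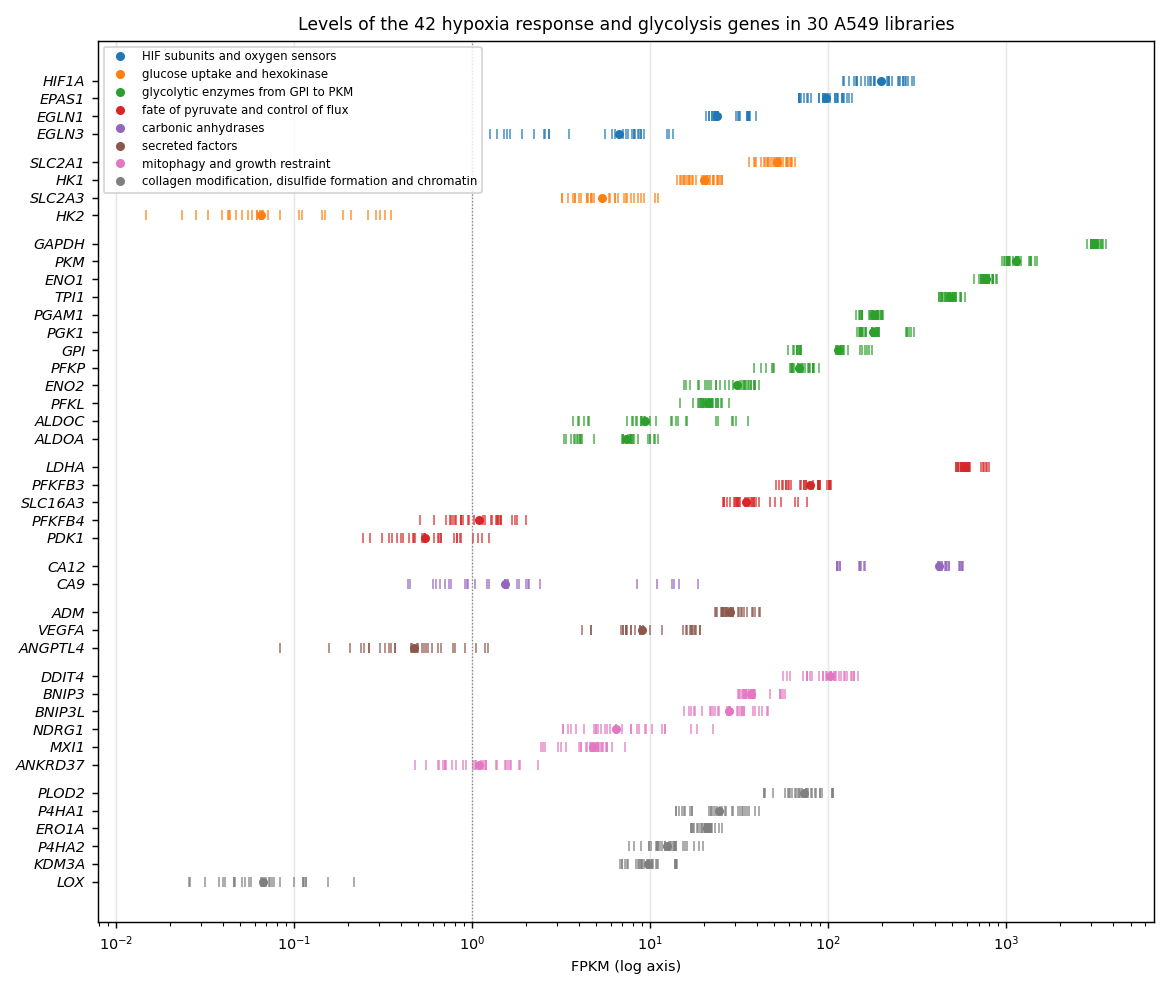
FPKM of the 42 members in 30 libraries on a log axis, 1 tick for each library and a dot at the median, ordered by role. GAPDH is highest (2850.0 to 3660.0 FPKM), HK2 and LOX lie below 1 FPKM in every library, and CA9 splits into a low cluster and 6 high libraries.

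Exposure was compared with no exposure in 5 backgrounds to see whether the field changes this program. After exposure genes of collagen hydroxylation and DDIT4 were higher, while HIF1A, the sensor EGLN3, the glucose transporter SLC2A1, the lactate exporter SLC16A3 and the flux regulator PFKFB3 were lower. In the main fit most enzymes of the glycolytic chain did not pass, nor did most genes at large, of which 28.6 to 45.1% passed. In bulk RNA a change in every cell and a change in some of the cells cannot be told apart. In KOA 8 members higher and 9 lower passed the threshold, 42.5% of 40 where 41.5% of all tested genes passed (18.8% higher and 22.7% lower). The counts were 6 members higher and 9 lower in iR_KOA (37.5% against 35.3% of all) and 6 members higher and 17 lower in iR_KOA_D3 (57.5% against 45.1%). For the wild type they were 8 members higher and 9 lower in iR_WTA (42.5% against 28.6%) and 6 members higher and 14 lower in iR_WTA_D3 (50% against 41.8%). The shares in KOA and iR_KOA were thus near the background, and in both D3 backgrounds more members than genes at large were lower (42.5% against 27.8% in iR_KOA_D3 and 35% against 26.5% in iR_WTA_D3). With median-of-ratios scaling the lower shares were 30% of members against 25% of all in iR_KOA_D3 and 27.5% against 20.5% in iR_WTA_D3. The median difference over members was −0.012, −0.065, −0.12, −0.032 and −0.10 in the same order, beside −0.025, −0.047, −0.036, −0.038 and −0.051 over all tested genes. Of the members, 3, P4HA1, PLOD2 and DDIT4, were higher in all 5 backgrounds (7.5% of members, where 5.98% of all tested genes were). Another 7, HIF1A, EGLN3, SLC2A1, LDHA, SLC16A3, PFKFB3 and KDM3A, were lower in all 5 (17.5%, where 7.87% of all were), and 11 members passed in none. With median-of-ratios scaling SLC2A1, SLC16A3, PFKFB3 and KDM3A remained lower in all 5, while HIF1A, EGLN3 and LDHA each missed the threshold in at least 1. The share of all tested genes lower in all 5 with that scaling was not counted. With median-of-ratios scaling the split was 6 higher and 6 lower in iR_KOA, 7 higher and 12 lower in iR_KOA_D3 and 6 higher and 11 lower in iR_WTA_D3, and the share of higher calls among all genes moved from 36.9 to 48.5% in iR_KOA and from 36.6 to 48% in iR_WTA_D3. With quantile normalization iR_WTA had 8 higher and 8 lower, with 49.9% of all calls higher instead of 39.9%. With only the 6 libraries compared in the fit, iR_KOA had 8 members past the threshold in place of 15.

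**Figure D2:**
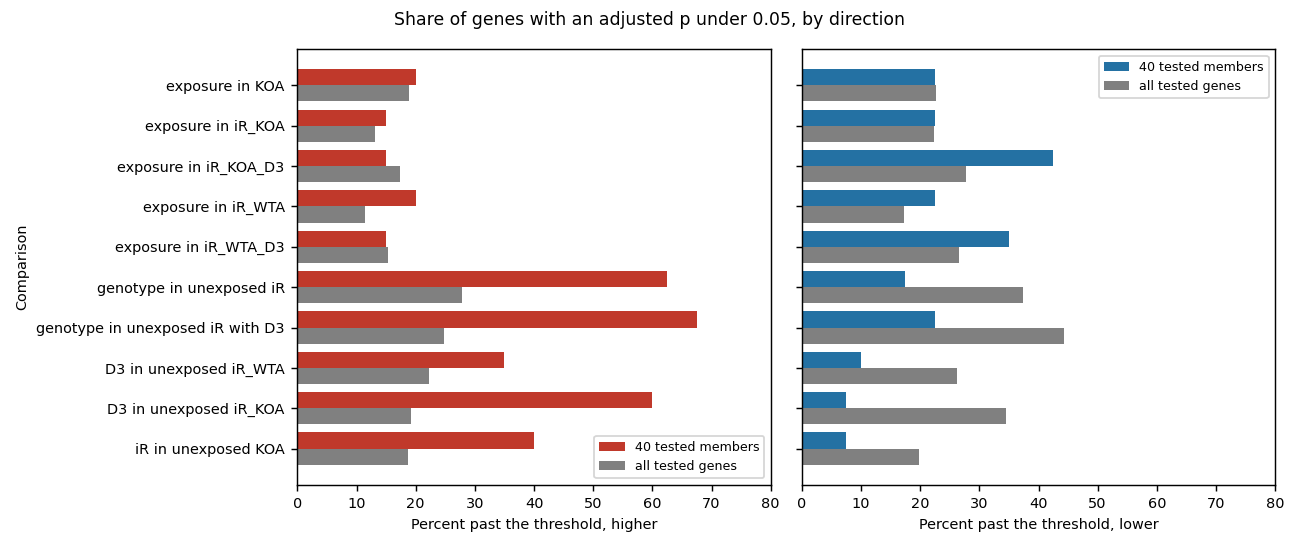
Percent of the 40 tested members (coloured bars) and of all 12086 tested genes (grey bars) with an adjusted p under 0.05, higher on the left and lower on the right, for 10 comparisons. Coloured and grey bars are close for exposure in KOA and iR_KOA, while 60% of members against 19.2% of all genes were higher with D3 in the knockout.

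**Figure D3:**
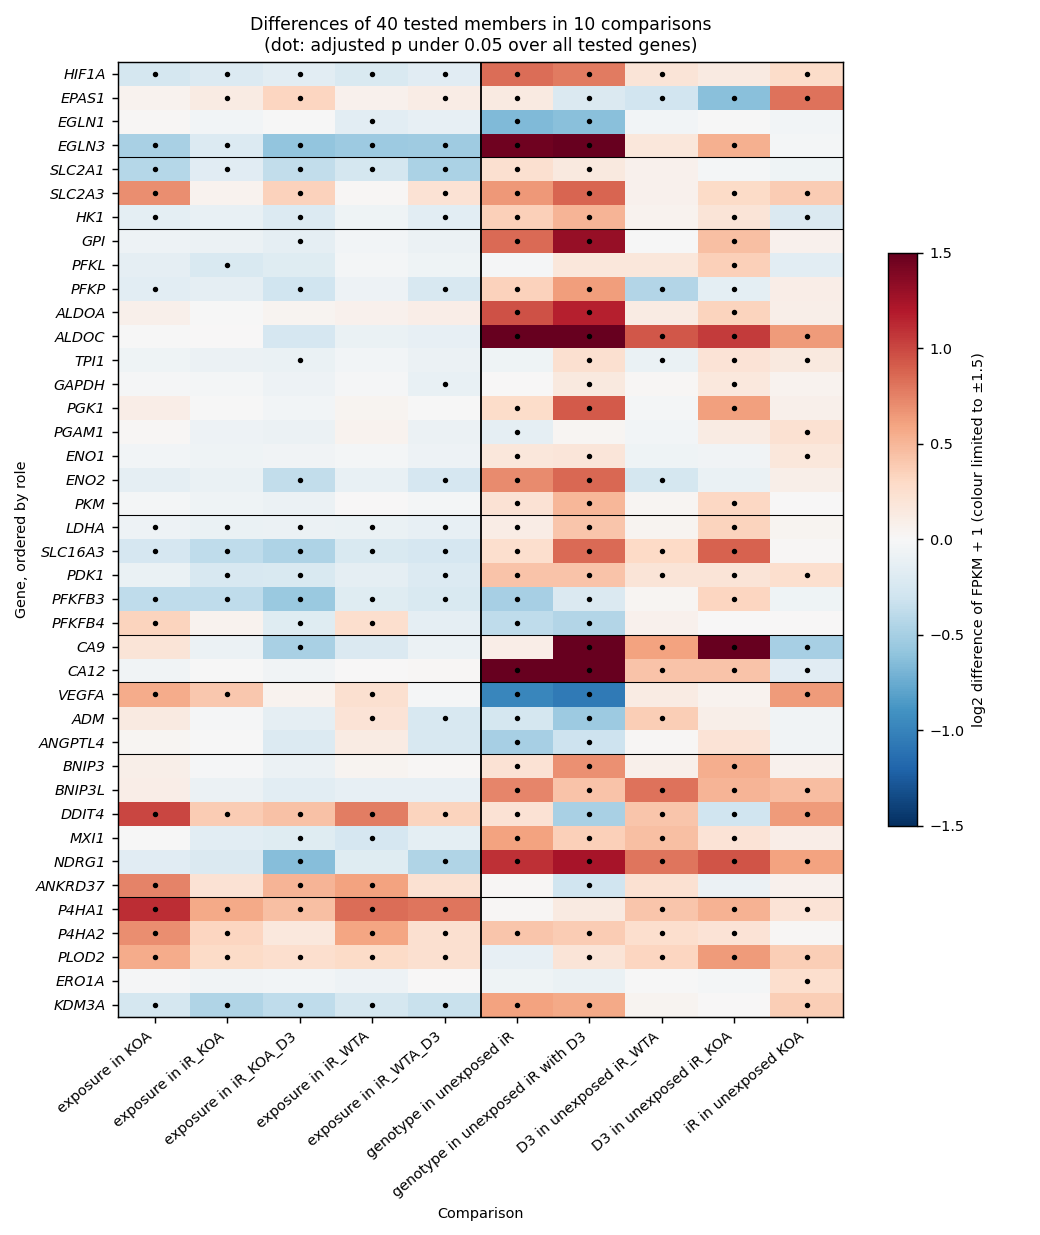
Log2 differences of the 40 tested members (vertical axis, ordered by role) in 5 exposure comparisons and 5 others (horizontal axis), red for higher and blue for lower, with a dot where the adjusted p was under 0.05. The P4HA1 and DDIT4 lines are red across the exposure columns, EGLN3 turns from blue under exposure to deep red in the knockout, and CA9 is deep red for D3 in the knockout and for genotype with D3.

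Collagen-modifying hydroxylases were higher after exposure, P4HA1 and PLOD2 in all 5 backgrounds and P4HA2 in 4. P4HA1 (chr10:73007217-73096866), the catalytic subunit of collagen prolyl 4-hydroxylase, had the largest difference of all members in KOA. P4HA1 measured 13.9, 14.4 and 14.0 unexposed against 32.1, 34.1 and 28.7 exposed FPKM in KOA, 16.8, 17.3 and 15.1 against 26.5, 25.4 and 22.5 in iR_KOA, and 23.2, 24.8 and 23.8 against 35.0, 33.2 and 31.4 in iR_KOA_D3. P4HA1 in the wild type was 15.4, 17.1 and 15.8 against 32.9, 29.2 and 26.8 FPKM in iR_WTA and 21.4, 21.9 and 22.0 against 39.0, 36.1 and 41.1 in iR_WTA_D3. All exposed libraries stood above all unexposed ones in each background. Such separation upward was common, at 25.5, 15.8, 22.6, 16 and 17.3% of all tested genes in the same order. Downward it held for 32.2, 25.5, 33.3, 26.3 and 29.5%. These shares stand beside every statement of separate groups after exposure below. P4HA1 differed by 1.11 ± 0.070, 0.57 ± 0.070, 0.45 ± 0.070, 0.84 ± 0.070 and 0.80 ± 0.070 on the log2 scale (± SE, same order of backgrounds, adjusted p = 2.80e-12 to 9.98e-06). Mean FPKM was 2.24 times the unexposed level in KOA and 1.39 times in iR_KOA_D3. P4HA2 (chr5:132190147-132227853), the second catalytic subunit, whose locus overlaps the antisense gene P4HA2-AS1, moved the same way with smaller steps. P4HA2 measured 10.9, 11.1 and 11.7 unexposed against 19.9, 18.8 and 17.8 exposed FPKM in KOA, 11.1, 10.9 and 12.1 against 16.1, 13.5 and 13.9 in iR_KOA, and 13.1, 13.9 and 12.8 against 15.3, 15.7 and 14.0 in iR_KOA_D3. P4HA2 in the wild type was 8.91, 7.63 and 8.17 against 13.8, 13.7 and 11.4 FPKM in iR_WTA and 9.86, 10.1 and 9.92 against 12.9, 12.2 and 10.7 in iR_WTA_D3. The groups did not overlap in any background. P4HA2 differed by 0.69 ± 0.072, 0.32 ± 0.072, 0.16 ± 0.072, 0.59 ± 0.072 and 0.23 ± 0.072 on the log2 scale (± SE, same order of backgrounds, adjusted p = 2.51e-08 to 0.0721), and the difference in iR_KOA_D3 was the one that did not pass. Without iR_WTA_D3_EX replicate 1, P4HA2 was 0.18 (adjusted p = 0.0744). In iR_KOA_D3 P4HA2 passed with median-of-ratios scaling (0.185, adjusted p = 0.0460). PLOD2 (chr3:146069440-146161184), which hydroxylates lysines of collagen telopeptides, was the most abundant of the 3. PLOD2 measured 44.1, 43.4 and 43.5 unexposed against 69.4, 65.2 and 60.1 exposed FPKM in KOA, 62.5, 59.9 and 49.1 against 66.4, 75.3 and 67.8 in iR_KOA, and 85.5, 92.2 and 90.3 against 107, 105 and 107 in iR_KOA_D3. PLOD2 in the wild type was 57.6, 68.2 and 60.9 against 81.2, 71.7 and 75.3 FPKM in iR_WTA and 80.2, 76.2 and 77.5 against 89.6, 84.5 and 105 in iR_WTA_D3. Again no exposed library fell within the unexposed range. PLOD2 differed by 0.56 ± 0.078, 0.29 ± 0.078, 0.25 ± 0.078, 0.29 ± 0.078 and 0.24 ± 0.078 on the log2 scale (± SE, same order of backgrounds, adjusted p = 2.71e-06 to 0.0142). The PLOD2 calls outside KOA were close to the threshold. In iR_KOA the value was 0.19 (adjusted p = 0.0674) without iR_KOA_NE replicate 3, in iR_KOA_D3 0.22 (adjusted p = 0.0531) without iR_KOA_D3_NE replicate 1, and in iR_WTA_D3 0.16 (adjusted p = 0.126) without iR_WTA_D3_EX replicate 3. PLOD2 in iR_WTA missed the threshold without iR_WTA_EX replicate 1 or iR_WTA_NE replicate 1 (log2 difference 0.23 to 0.24, adjusted p = 0.0504 to 0.0529). With quantile normalization PLOD2 did not pass in iR_KOA_D3 (0.17, adjusted p = 0.107). LOX, which crosslinks collagen, was not tested, and ERO1A, the oxidase of disulfide formation in the endoplasmic reticulum, lay between −0.081 and 0.010 in the 5 backgrounds and passed in none.

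DDIT4 (chr10:72273924-72276036), a stress-induced inhibitor of mTORC1 signalling, was the other member higher in all backgrounds. DDIT4 measured 58.7, 56.0 and 61.0 unexposed against 128, 111 and 116 exposed FPKM in KOA, 88.8, 93.9 and 93.4 against 136, 103 and 124 in iR_KOA, and 76.1, 76.3 and 71.9 against 108, 98.9 and 98.0 in iR_KOA_D3. DDIT4 in the wild type was 80.9, 76.2 and 79.3 against 147, 140.1 and 118 FPKM in iR_WTA and 104, 109.6 and 103 against 141, 134 and 124 in iR_WTA_D3. Exposed and unexposed libraries were separate in each. DDIT4 differed by 1.00 ± 0.078, 0.38 ± 0.078, 0.44 ± 0.078, 0.76 ± 0.078 and 0.33 ± 0.078 on the log2 scale (± SE, same order of backgrounds, adjusted p = 1.65e-10 to 0.00137). The ratio of means ran from 2.02 in KOA to 1.26 in iR_WTA_D3. ANKRD37, a small ankyrin-repeat protein, was higher by 0.74 (adjusted p = 1.08e-05) in KOA, 0.52 (adjusted p = 0.000683) in iR_KOA_D3 and 0.60 (adjusted p = 0.000282) in iR_WTA. Its level was low, 0.478 to 2.36 FPKM, and with a pseudocount of 0.1 these differences were 1.29, 0.95 and 1.05. NDRG1, a growth-restraining gene of the hypoxia response, was lower in iR_KOA_D3 (−0.63, adjusted p = 8.68e-06) and iR_WTA_D3 (−0.45, adjusted p = 0.000606), and its values of −0.17, −0.22 and −0.18 elsewhere did not pass. MXI1, an antagonist of MYC, was lower in iR_WTA (−0.26, adjusted p = 0.00770) and in iR_KOA_D3 (−0.19, adjusted p = 0.0350). MXI1 in iR_KOA_D3 missed the threshold without iR_KOA_D3_EX replicate 1, iR_KOA_D3_EX replicate 2 or iR_KOA_D3_NE replicate 2 (log2 difference −0.19 to −0.10, adjusted p = 0.0640 to 0.275). BNIP3 and BNIP3L, receptors that direct mitochondria to autophagy, passed in no background, with values from −0.088 to 0.084 and from −0.15 to 0.10.

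The RNA of HIF1A itself was lower after exposure. HIF1A (chr14:61695513-61748258), the oxygen-labile alpha subunit, overlaps 3 antisense genes in RefSeq, whose reads cannot be told apart without a known strand setting. HIF1A measured 219.9, 216 and 219.9 unexposed against 182, 183 and 182 exposed FPKM in KOA, 281, 264 and 253 against 213, 249 and 228 in iR_KOA, and 295, 273 and 305 against 263, 246 and 270.2 in iR_KOA_D3. HIF1A in the wild type was 146, 152 and 146 against 123, 122 and 132 FPKM in iR_WTA and 173, 162 and 174 against 143, 141 and 169 in iR_WTA_D3. Exposed and unexposed libraries were separate in 4 backgrounds and overlapped in iR_WTA_D3. HIF1A differed by −0.26 ± 0.060, −0.21 ± 0.060, −0.16 ± 0.060, −0.23 ± 0.060 and −0.17 ± 0.060 on the log2 scale (± SE, same order of backgrounds, adjusted p = 0.000929 to 0.0281). HIF1A in iR_KOA missed the threshold without iR_KOA_EX replicate 1 or iR_KOA_NE replicate 1 (log2 difference −0.17 to −0.15, adjusted p = 0.0526 to 0.0656). HIF1A in iR_KOA_D3 missed the threshold without iR_KOA_D3_EX replicate 2, iR_KOA_D3_NE replicate 1 or iR_KOA_D3_NE replicate 3 (log2 difference −0.15 to −0.12, adjusted p = 0.0781 to 0.135). HIF1A in iR_WTA_D3 missed the threshold without iR_WTA_D3_EX replicate 1, iR_WTA_D3_EX replicate 2, iR_WTA_D3_NE replicate 1 or iR_WTA_D3_NE replicate 3 (log2 difference −0.16 to −0.13, adjusted p = 0.0709 to 0.118). With median-of-ratios scaling HIF1A no longer passed in iR_KOA_D3 (−0.14, adjusted p = 0.0581) or iR_WTA_D3 (−0.13, adjusted p = 0.0810), and in iR_KOA it did not pass with quantile normalization (−0.15, adjusted p = 0.125). In KOA quantile normalization gave HIF1A −0.40. EGLN3 (chr14:33924227-33951074), a prolyl hydroxylase that is itself a target of the factor, was lower in the same backgrounds. EGLN3 measured 8.86, 8.20 and 9.30 unexposed against 6.32, 5.56 and 6.11 exposed FPKM in KOA, 8.13, 8.93 and 8.65 against 7.30, 7.08 and 7.55 in iR_KOA, and 12.4, 13.4 and 12.7 against 7.96, 8.12 and 8.52 in iR_KOA_D3. EGLN3 in the wild type was 2.53, 2.70 and 2.24 against 1.26, 1.39 and 1.52 FPKM in iR_WTA and 2.58, 3.49 and 2.71 against 1.57, 1.90 and 1.62 in iR_WTA_D3. No exposed library reached the unexposed range. EGLN3 differed by −0.48 ± 0.070, −0.20 ± 0.070, −0.59 ± 0.070, −0.55 ± 0.070 and −0.54 ± 0.070 on the log2 scale (± SE, same order of backgrounds, adjusted p = 2.93e-07 to 0.0269). EGLN3 in iR_KOA missed the threshold without iR_KOA_EX replicate 1, iR_KOA_EX replicate 2, iR_KOA_NE replicate 2 or iR_KOA_NE replicate 3 (log2 difference −0.20 to −0.18, adjusted p = 0.0579 to 0.0975). Its call in iR_KOA was also lost with a pseudocount of 0.1 (−0.23, adjusted p = 0.0557) and with median-of-ratios scaling (−0.17, adjusted p = 0.0604). EGLN1, the main oxygen sensor in most cells, passed in iR_WTA (−0.16, adjusted p = 0.0367). EGLN1 in iR_WTA missed the threshold without iR_WTA_EX replicate 1, iR_WTA_EX replicate 2 or iR_WTA_NE replicate 2 (log2 difference −0.14 to −0.12, adjusted p = 0.130 to 0.184). EPAS1, the other alpha subunit, was higher where it passed, in iR_KOA (0.12, adjusted p = 0.00754), iR_KOA_D3 (0.32, adjusted p = 7.26e-08) and iR_WTA_D3 (0.12, adjusted p = 0.00904). Without iR_KOA_EX replicate 2 the iR_KOA value was 0.098 (adjusted p = 0.0537), and without iR_WTA_D3_EX replicate 2 the iR_WTA_D3 value was 0.086 (adjusted p = 0.0631). KDM3A (chr2:86437044-86492716), a histone demethylase and textbook HIF target, was lower throughout. KDM3A measured 11.0, 10.8 and 10.0 unexposed against 8.57, 9.06 and 8.32 exposed FPKM in KOA, 13.8, 13.7 and 14.3 against 9.82, 10.2 and 9.69 in iR_KOA, and 14.0, 14.1 and 14.0 against 10.9, 10.3 and 10.3 in iR_KOA_D3. KDM3A in the wild type was 8.74, 8.96 and 8.86 against 6.97, 7.40 and 7.20 FPKM in iR_WTA and 8.62, 9.24 and 9.66 against 7.00, 6.78 and 7.51 in iR_WTA_D3. Its groups did not overlap. KDM3A differed by −0.27 ± 0.043, −0.45 ± 0.043, −0.38 ± 0.043, −0.27 ± 0.043 and −0.33 ± 0.043 on the log2 scale (± SE, same order of backgrounds, adjusted p = 2.21e-08 to 4.39e-05).

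**Figure D4:**
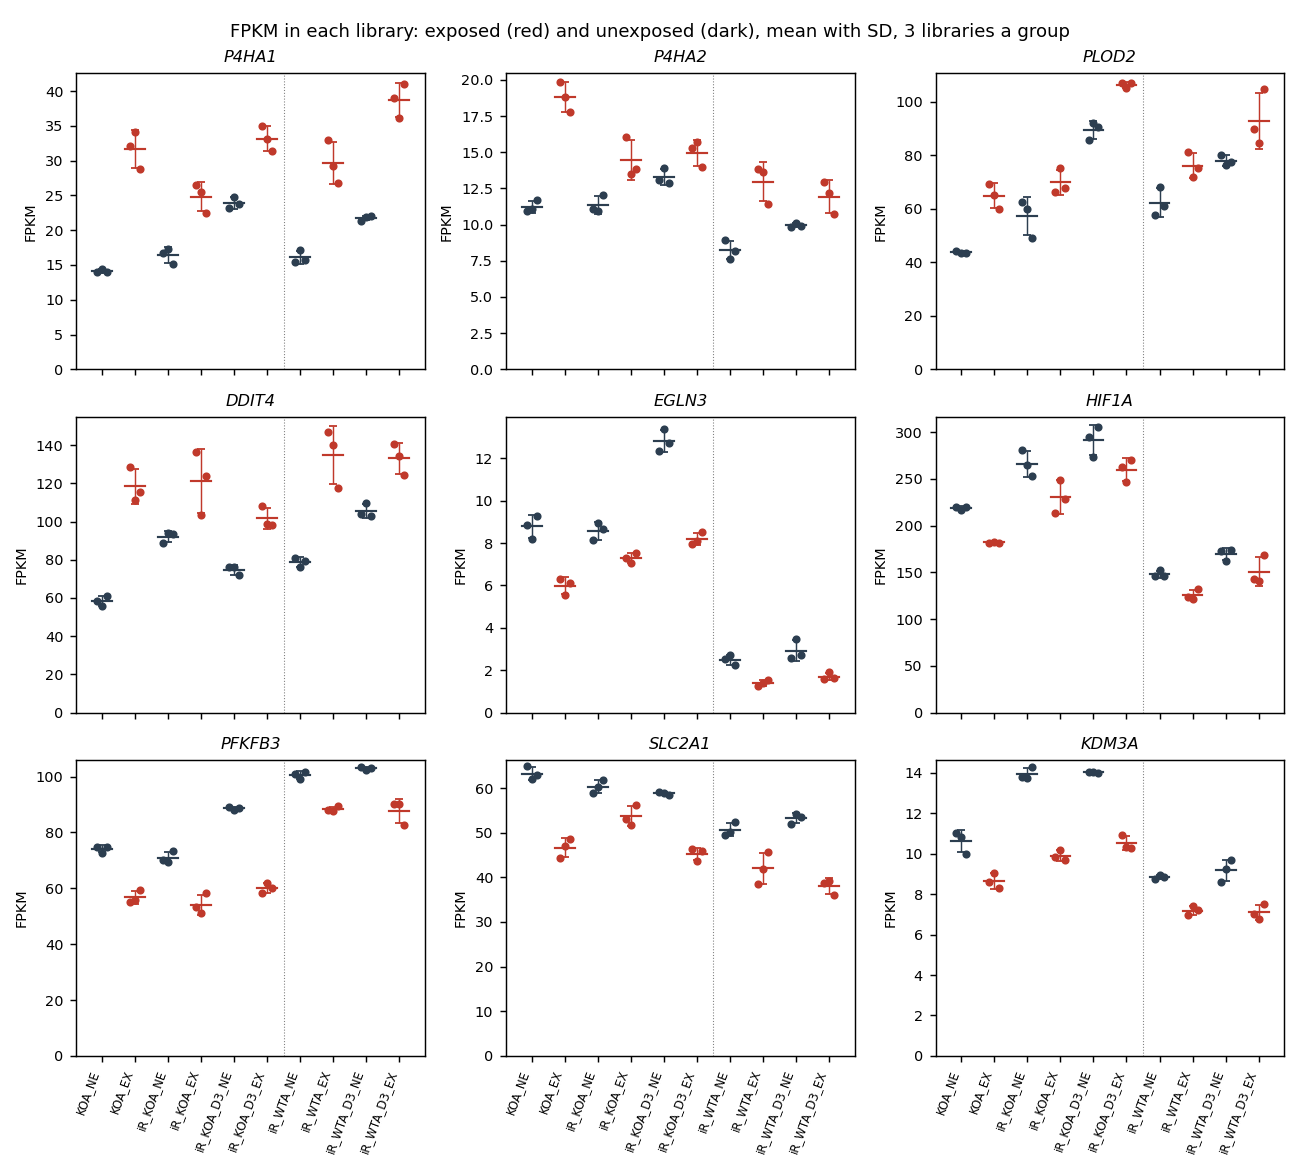
FPKM of 9 members in each library (points), with the mean and SD of each group, exposed in red and unexposed in dark, knockout left and wild type right of the dotted line. P4HA1, PLOD2 and DDIT4 are higher in every exposed group, while EGLN3, HIF1A, PFKFB3, SLC2A1 and KDM3A are lower.

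RNA of the glucose transporter SLC2A1 and of the lactate exporter SLC16A3 was lower in all 5 backgrounds. SLC2A1 (chr1:42925353-42958868), the basal glucose transporter GLUT1, was the more abundant of the 2 transporters at 36.0 to 64.9 FPKM. SLC2A1 measured 64.9, 62.0 and 62.8 unexposed against 44.4, 47.0 and 48.5 exposed FPKM in KOA, 58.9, 60.2 and 61.7 against 53.1, 51.8 and 56.1 in iR_KOA, and 59.0, 59.0 and 58.4 against 46.3, 43.8 and 45.9 in iR_KOA_D3. SLC2A1 in the wild type was 49.5, 50.1 and 52.3 against 38.5, 41.9 and 45.6 FPKM in iR_WTA and 52.0, 54.2 and 53.5 against 38.8, 39.2 and 36.0 in iR_WTA_D3. Exposed libraries stood below unexposed ones in all 5 backgrounds. SLC2A1 differed by −0.43 ± 0.047, −0.16 ± 0.047, −0.37 ± 0.047, −0.27 ± 0.047 and −0.48 ± 0.047 on the log2 scale (± SE, same order of backgrounds, adjusted p = 1.50e-08 to 0.00801). SLC2A3, the high-affinity transporter GLUT3, was 3.21 to 11.1 FPKM and went the other way where it passed, by 0.69 (adjusted p = 8.13e-07) in KOA, 0.35 (adjusted p = 0.00253) in iR_KOA_D3 and 0.22 (adjusted p = 0.0494) in iR_WTA_D3. SLC2A3 in iR_WTA_D3 missed the threshold without iR_WTA_D3_EX replicate 1, iR_WTA_D3_EX replicate 2, iR_WTA_D3_EX replicate 3, iR_WTA_D3_NE replicate 1 or iR_WTA_D3_NE replicate 3 (log2 difference 0.16 to 0.25, adjusted p = 0.0543 to 0.215). HK1, which traps glucose as its phosphate, was lower in KOA (−0.15, adjusted p = 0.0270), iR_KOA_D3 (−0.21, adjusted p = 0.00276) and iR_WTA_D3 (−0.16, adjusted p = 0.0171). HK1 in KOA missed the threshold without KOA_EX replicate 2, KOA_NE replicate 1 or KOA_NE replicate 3 (log2 difference −0.15 to −0.12, adjusted p = 0.0593 to 0.117). HK1 in iR_WTA_D3 missed the threshold without iR_WTA_D3_EX replicate 3 or iR_WTA_D3_NE replicate 3 (log2 difference −0.15 to −0.12, adjusted p = 0.0570 to 0.0931). SLC16A3 (chr17:82217934-82240086), the lactate and proton exporter MCT4, overlaps CSNK1D. SLC16A3 measured 34.2, 38.6 and 37.8 unexposed against 29.6, 30.8 and 31.8 exposed FPKM in KOA, 35.1, 37.3 and 39.6 against 28.0, 26.0 and 31.2 in iR_KOA, and 68.1, 76.5 and 65.5 against 47.4, 54.3 and 50.4 in iR_KOA_D3. SLC16A3 in the wild type was 31.4, 30.1 and 31.8 against 25.8, 27.2 and 26.2 FPKM in iR_WTA and 36.7, 40.7 and 38.1 against 30.8, 35.8 and 30.4 in iR_WTA_D3. The libraries of exposed groups were all below those of unexposed groups. SLC16A3 differed by −0.25 ± 0.070, −0.39 ± 0.070, −0.46 ± 0.070, −0.23 ± 0.070 and −0.25 ± 0.070 on the log2 scale (± SE, same order of backgrounds, adjusted p = 8.48e-06 to 0.0156). SLC16A3 in iR_WTA missed the threshold without iR_WTA_EX replicate 1 or iR_WTA_NE replicate 3 (log2 difference −0.21, adjusted p = 0.0580 to 0.0598). LDHA (chr11:18394563-18408425) changed little. LDHA measured 599, 597 and 608 unexposed against 574, 557 and 576 exposed FPKM in KOA, 616, 625 and 619 against 572, 554 and 609.9 in iR_KOA, and 773, 802 and 778 against 723, 751 and 741 in iR_KOA_D3. LDHA in the wild type was 576, 559 and 579.9 against 539.5, 535 and 525 FPKM in iR_WTA and 576, 601 and 588 against 538, 521 and 558 in iR_WTA_D3. Its groups were separate in all 5 backgrounds, but the steps were small. LDHA differed by −0.080 ± 0.032, −0.10 ± 0.032, −0.087 ± 0.032, −0.10 ± 0.032 and −0.13 ± 0.032 on the log2 scale (± SE, same order of backgrounds, adjusted p = 0.00255 to 0.0491). The LDHA call held in iR_WTA_D3 without any one library, and was lost elsewhere. LDHA in KOA missed the threshold without KOA_EX replicate 1, KOA_EX replicate 2, KOA_EX replicate 3, KOA_NE replicate 1, KOA_NE replicate 2 or KOA_NE replicate 3 (log2 difference −0.089 to −0.064, adjusted p = 0.0584 to 0.180). LDHA in iR_KOA missed the threshold without iR_KOA_EX replicate 1, iR_KOA_EX replicate 2 or iR_KOA_NE replicate 2 (log2 difference −0.094 to −0.070, adjusted p = 0.0560 to 0.114). LDHA in iR_KOA_D3 missed the threshold without iR_KOA_D3_EX replicate 1, iR_KOA_D3_EX replicate 3 or iR_KOA_D3_NE replicate 2 (log2 difference −0.090 to −0.071, adjusted p = 0.0561 to 0.127). LDHA in iR_WTA missed the threshold without iR_WTA_EX replicate 3, iR_WTA_NE replicate 1 or iR_WTA_NE replicate 3 (log2 difference −0.10 to −0.089, adjusted p = 0.0652 to 0.0842). With median-of-ratios scaling LDHA did not pass in KOA, iR_KOA, iR_KOA_D3 or iR_WTA (adjusted p = 0.0991, 0.109, 0.103 and 0.0626).

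PFKFB3 (chr10:6144921-6326637) makes fructose 2,6-bisphosphate, the activator of phosphofructokinase, and overlaps the antisense gene PFKFB3-AS1. PFKFB3 measured 75.0, 72.8 and 74.9 unexposed against 55.2, 55.6 and 59.5 exposed FPKM in KOA, 70.1, 69.6 and 73.3 against 53.2, 51.1 and 58.2 in iR_KOA, and 89.0, 88.2 and 88.8 against 58.2, 61.7 and 60.1 in iR_KOA_D3. PFKFB3 in the wild type was 101, 99.0 and 102 against 88.1, 87.7 and 89.3 FPKM in iR_WTA and 103, 102 and 103 against 90.0, 90.2 and 82.7 in iR_WTA_D3. All exposed libraries were below all unexposed ones. PFKFB3 differed by −0.38 ± 0.040, −0.39 ± 0.040, −0.56 ± 0.040, −0.18 ± 0.040 and −0.23 ± 0.040 on the log2 scale (± SE, same order of backgrounds, adjusted p = 5.01e-11 to 0.00101). PFKFB4, a related enzyme with stronger phosphatase activity, had no common direction: it was higher in KOA (0.33, adjusted p = 0.000238) and iR_WTA (0.25, adjusted p = 0.00613) and lower in iR_KOA_D3 (−0.19, adjusted p = 0.0237). PFKFB4 in iR_KOA_D3 missed the threshold without iR_KOA_D3_EX replicate 2, iR_KOA_D3_EX replicate 3, iR_KOA_D3_NE replicate 2 or iR_KOA_D3_NE replicate 3 (log2 difference −0.18 to −0.13, adjusted p = 0.0549 to 0.144). PDK1, which holds pyruvate back from the mitochondrion, was lower in iR_KOA (−0.24, adjusted p = 0.00199), iR_KOA_D3 (−0.23, adjusted p = 0.00235) and iR_WTA_D3 (−0.21, adjusted p = 0.00518), at 0.244 to 1.24 FPKM over all libraries. With a pseudocount of 0.1 PDK1 was −0.52 in iR_KOA and PFKFB4 0.38 in iR_WTA. Of the 12 enzymes from GPI to PKM none was higher in any background in the main fit. In KOA, iR_KOA, iR_KOA_D3, iR_WTA and iR_WTA_D3, 1, 1, 4, 0 and 3 were lower. Of all tested genes 22.7, 22.3, 27.8, 17.2 and 26.5% were lower and 18.8, 13.1, 17.3, 11.4 and 15.3% higher. By limma without adjustment, 3, 4, 7, 0 and 4 of the 12 had p under 0.05 in the same order. Of all tested genes 48.9, 44.6, 51.5, 38.4 and 49.4% had. In the main fit ALDOA, ALDOC, PGK1, PGAM1, ENO1 and PKM passed in none of the 5. PGK1, which makes the first ATP of the chain, lay between −0.040 and 0.095. PGK1 passed as higher in KOA with median-of-ratios scaling (0.111, adjusted p = 0.0398), quantile normalization (0.093, adjusted p = 0.0382) and only the groups compared (0.095, adjusted p = 0.0091). ALDOC passed as lower in iR_KOA_D3 with a filter of at least 5 FPKM in at least 3 libraries (−0.255, adjusted p = 0.0494). The lower enzymes were PFKP, a phosphofructokinase, in KOA (−0.15, adjusted p = 0.0195), iR_KOA_D3 (−0.30, adjusted p = 4.88e-05) and iR_WTA_D3 (−0.23, adjusted p = 0.000831), and ENO2 in iR_KOA_D3 (−0.36, adjusted p = 4.27e-05) and iR_WTA_D3 (−0.25, adjusted p = 0.00228). PFKL, the liver-type phosphofructokinase, passed in iR_KOA (−0.23, adjusted p = 0.0237), GPI, the phosphoglucose isomerase, and TPI1 in iR_KOA_D3 (−0.13 and −0.10), and GAPDH in iR_WTA_D3 (−0.11). PFKP in KOA missed the threshold without KOA_EX replicate 2 or KOA_NE replicate 3 (log2 difference −0.13 to −0.12, adjusted p = 0.0906 to 0.111). PFKL in iR_KOA missed the threshold without iR_KOA_EX replicate 2, iR_KOA_NE replicate 2 or iR_KOA_NE replicate 3 (log2 difference −0.20 to −0.14, adjusted p = 0.0799 to 0.203). GPI in iR_KOA_D3 missed the threshold without iR_KOA_D3_EX replicate 1, iR_KOA_D3_EX replicate 3 or iR_KOA_D3_NE replicate 2 (log2 difference −0.12 to −0.10, adjusted p = 0.0550 to 0.105). TPI1 in iR_KOA_D3 missed the threshold without iR_KOA_D3_EX replicate 1, iR_KOA_D3_EX replicate 3 or iR_KOA_D3_NE replicate 2 (log2 difference −0.093 to −0.071, adjusted p = 0.0876 to 0.180). GAPDH in iR_WTA_D3 missed the threshold without iR_WTA_D3_EX replicate 3, iR_WTA_D3_NE replicate 2 or iR_WTA_D3_NE replicate 3 (log2 difference −0.10 to −0.079, adjusted p = 0.0623 to 0.133). In iR_WTA_D3 GAPDH did not pass with median-of-ratios scaling (−0.065, adjusted p = 0.197), and with quantile normalization its difference was 0. Quantile normalization gives all libraries the same value at the same rank. For GAPDH, the highest member, its values therefore follow rank alone and cannot decide whether GAPDH changed. Quantile normalization gave a higher GAPDH in KOA (0.23, adjusted p = 0.0499), and PDK1 in iR_WTA_D3 (−0.13, adjusted p = 0.112) and PFKFB4 in iR_KOA_D3 (−0.16, adjusted p = 0.0753) did not pass with it. With it GPI and TPI1 passed as lower in KOA, PGK1, PGAM1 and PKM in iR_KOA_D3, and ENO1 and TPI1 in iR_WTA_D3. These differences were −0.169 to −0.096 (adjusted p = 0.000952 to 0.0339). With median-of-ratios scaling GPI (−0.105, adjusted p = 0.0643) and TPI1 (−0.074, adjusted p = 0.123) did not pass in iR_KOA_D3. The 12 enzymes held 1.37% ± 0.033 of all FPKM in unexposed KOA and 1.39% ± 0.0302 in exposed KOA, and 1.61% ± 0.0633 against 1.53% ± 0.0174 in iR_KOA_D3 (SD, n = 3).

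Of the pH regulators, CA12 passed in no background (−0.056 to 0.017), and CA9 was lower in iR_KOA_D3 (−0.49, adjusted p = 0.00541). CA9 in iR_KOA_D3 missed the threshold without iR_KOA_D3_EX replicate 1 or iR_KOA_D3_NE replicate 2 (log2 difference −0.37 to −0.34, adjusted p = 0.0533 to 0.0632). Among secreted factors VEGFA, the endothelial growth factor, was higher in KOA (0.56, adjusted p = 2.54e-07), iR_KOA (0.40, adjusted p = 6.03e-05) and iR_WTA (0.24, adjusted p = 0.0101), and its values with D3, 0.052 and −0.018, did not pass. ADM, adrenomedullin, was higher in iR_WTA (0.21, adjusted p = 0.0164) and lower in iR_WTA_D3 (−0.24, adjusted p = 0.00377). ADM in iR_WTA missed the threshold without iR_WTA_EX replicate 3 or iR_WTA_NE replicate 2 (log2 difference 0.15 to 0.16, adjusted p = 0.104 to 0.107). ANGPTL4, an inhibitor of lipoprotein lipase, was at 0.0831 to 1.24 FPKM and passed in none.

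Whether exposure acted differently between backgrounds was tested on the difference of differences. In iR backgrounds without D3, 0 of 40 members differed between knockout and wild type by limma, where 0.538% of all tested genes did, and 9 members (22.5%) had an unadjusted p under 0.05, as had 9.74% of all tested genes. With D3, 2 differed (5% of members against 2.38% of all, 1.24% higher and 1.14% lower): PFKFB3 was lower by more in the knockout, a difference of −0.33 (adjusted p = 0.00111), and EPAS1 higher by more, a difference of 0.20 (adjusted p = 0.0251). EPAS1 for exposure by genotype in iR with D3 missed the threshold without iR_KOA_D3_EX replicate 1, iR_KOA_D3_EX replicate 2, iR_KOA_D3_NE replicate 2, iR_KOA_D3_NE replicate 3, iR_WTA_D3_EX replicate 1 or iR_WTA_D3_NE replicate 1 (log2 difference 0.18 to 0.20, adjusted p = 0.0640 to 0.0864). Between KOA and iR_KOA 5 members differed, 12.5% against 5.08% of all tested genes (1.66% higher and 3.42% lower), 4 of them lower and 1 higher with iR. The exposure differences of 4 members were smaller with iR than in KOA: SLC2A3, by −0.64 (adjusted p = 0.00208), DDIT4, by −0.62 (adjusted p = 0.000811), P4HA1, by −0.54 (adjusted p = 0.000969), and P4HA2, by −0.37 (adjusted p = 0.0317), while the fall of SLC2A1 was smaller, by 0.27 (adjusted p = 0.0148). P4HA2 for exposure by iR in knockout missed the threshold without KOA_EX replicate 1, KOA_EX replicate 2, KOA_NE replicate 1, KOA_NE replicate 2, iR_KOA_EX replicate 2, iR_KOA_EX replicate 3 or iR_KOA_NE replicate 3 (log2 difference −0.37 to −0.33, adjusted p = 0.0622 to 0.102). Without KOA_EX replicate 1, SLC2A1 was 0.23 (adjusted p = 0.0612). With D3 the exposure effect differed for 3 members in the iR knockout (7.5% against 4.14%, 1.74% higher and 2.4% lower) and for 3 in the iR wild type (7.5% against 1.67%, 0.753% higher and 0.918% lower). In the knockout these were EGLN3, by −0.38 (adjusted p = 0.0296), VEGFA, by −0.35 (adjusted p = 0.0370), and EPAS1, by 0.19 (adjusted p = 0.0261). Those in the wild type were ADM, by −0.45 (adjusted p = 0.00937), DDIT4, by −0.43 (adjusted p = 0.0444), and PFKFB4, by −0.38 (adjusted p = 0.0351). EGLN3 for exposure by D3 in iR knockout missed the threshold without iR_KOA_D3_EX replicate 1, iR_KOA_D3_EX replicate 2, iR_KOA_D3_NE replicate 2, iR_KOA_EX replicate 3 or iR_KOA_NE replicate 1 (log2 difference −0.38 to −0.35, adjusted p = 0.0518 to 0.0905). VEGFA for exposure by D3 in iR knockout missed the threshold without iR_KOA_D3_EX replicate 2, iR_KOA_D3_EX replicate 3, iR_KOA_D3_NE replicate 2, iR_KOA_EX replicate 1, iR_KOA_NE replicate 1 or iR_KOA_NE replicate 2 (log2 difference −0.33 to −0.26, adjusted p = 0.0758 to 0.120). EPAS1 for exposure by D3 in iR knockout missed the threshold without iR_KOA_D3_EX replicate 1, iR_KOA_D3_EX replicate 2, iR_KOA_D3_NE replicate 2, iR_KOA_D3_NE replicate 3, iR_KOA_EX replicate 3 or iR_KOA_NE replicate 2 (log2 difference 0.17 to 0.19, adjusted p = 0.0562 to 0.0755). DDIT4 for exposure by D3 in iR wild type missed the threshold without iR_WTA_D3_EX replicate 3, iR_WTA_D3_NE replicate 1, iR_WTA_D3_NE replicate 2, iR_WTA_D3_NE replicate 3, iR_WTA_EX replicate 1, iR_WTA_EX replicate 2, iR_WTA_NE replicate 1, iR_WTA_NE replicate 2 or iR_WTA_NE replicate 3 (log2 difference −0.45 to −0.37, adjusted p = 0.0601 to 0.134). PFKFB4 for exposure by D3 in iR wild type missed the threshold without iR_WTA_D3_EX replicate 1, iR_WTA_D3_EX replicate 3, iR_WTA_D3_NE replicate 1, iR_WTA_D3_NE replicate 3, iR_WTA_EX replicate 2, iR_WTA_EX replicate 3, iR_WTA_NE replicate 2 or iR_WTA_NE replicate 3 (log2 difference −0.41 to −0.34, adjusted p = 0.0524 to 0.109). With 1 library left out at a time the 4 counts that were not 0 ran over 1 to 3, 3 to 6, 0 to 5 and 1 to 3.

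Knockout and wild type were compared without exposure, and here most members stood higher in the knockout. Without D3, 25 members higher and 7 lower passed (80% of 40, where 65.3% of all tested genes passed, 27.9% higher and 37.4% lower). With D3 the counts were 27 higher and 9 lower (90%, where 69.1% of all passed, 24.8% higher and 44.3% lower). The median difference over members was 0.22 without and 0.40 with D3, against −0.056 and −0.11 over all tested genes. With median-of-ratios scaling the D3 counts were 30 higher and 9 lower, and 47.7% in place of 35.9% of all calls were higher. The enzymes from GPI to PKM took part, 8 higher and 1 lower of 12 without D3 and 10 higher with it, as did all 3 tested members of glucose uptake and hexokinase. Of the secreted factors VEGFA and ADM were lower in both comparisons, as was ANGPTL4, which was tested because it reached 1 FPKM in 3 libraries. The knockout groups also had more epithelial marker RNA and a larger mitochondrial share, given above, and their part in these differences was not tested.

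CA12 (chr15:63321378-63381846), a carbonic anhydrase of the cell surface, had the largest difference without D3. CA12 measured 117, 112 and 113 FPKM in iR_WTA_NE and 418, 420.2 and 429 in iR_KOA_NE, and with D3 149, 158 and 152 against 573, 568 and 568. The genotypes were far apart, with a log2 difference of 1.88 ± 0.030 without and 1.89 ± 0.030 with D3 (SE, adjusted p = 1.54e-25 and 8.79e-26). EGLN3, whose exposure values are given above, was 2.53, 2.70 and 2.24 FPKM in the unexposed iR wild type and 8.13, 8.93 and 8.65 in the knockout. Its difference was 1.46 ± 0.070 without D3 (adjusted p = 1.47e-15) and 1.82 ± 0.070 with D3 (adjusted p = 1.07e-17). ALDOC, the brain-type aldolase, was higher by 1.54 and 1.65, from 4.33 ± 0.277 to 14.5 ± 1.52 FPKM (mean ± SD, n = 3) without D3. NDRG1 was higher by 1.10 and 1.24, and ALDOA by 0.96 and 1.17. GPI was 69.3, 66.9 and 69.2 FPKM in the wild type and 121, 123 and 129 in the knockout, and the difference was 0.85 without and 1.31 with D3. HIF1A was higher by 0.84 and 0.78, BNIP3L by 0.73 and 0.43, KDM3A by 0.60 and 0.56, and ENO2 by 0.71 and 0.87. The 8 members just named had adjusted p of at most 1.28e-05.

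The members lower in the knockout were few. VEGFA (chr6:43770211-43786487) was 15.3, 15.9 and 16.2 FPKM in the wild type and 7.04, 7.28 and 8.27 in the knockout without D3, with no overlap and a difference of −0.98 ± 0.067 (adjusted p = 1.96e-12). Of all tested genes 39.6% were lower in that comparison without overlap. With D3 it was 17.1, 17.9 and 17.2 against 7.44, 8.72 and 7.35 (−1.06 ± 0.067, adjusted p = 3.27e-13). EGLN1 was lower (−0.66 and −0.62) while its paralog EGLN3 was higher, so the genotypes differed in opposite directions at these sensors. Lower in both comparisons were also ANGPTL4 (−0.50 and −0.31), PFKFB3 (−0.50 and −0.21), PFKFB4 (−0.38 and −0.44) and ADM (−0.27 and −0.54). PGAM1, a phosphoglycerate mutase, was lower without D3 (−0.13, adjusted p = 0.0340), and with D3 so were DDIT4 (−0.49, adjusted p = 5.06e-06), ANKRD37 (−0.30, adjusted p = 0.0223) and EPAS1 (−0.21, adjusted p = 8.25e-06). PGAM1 by genotype in unexposed iR missed the threshold without iR_KOA_NE replicate 1, iR_KOA_NE replicate 2, iR_WTA_NE replicate 1 or iR_WTA_NE replicate 3 (log2 difference −0.14 to −0.11, adjusted p = 0.0605 to 0.114). ANKRD37 by genotype in unexposed iR with D3 missed the threshold without iR_KOA_D3_NE replicate 1, iR_KOA_D3_NE replicate 2, iR_WTA_D3_NE replicate 1 or iR_WTA_D3_NE replicate 3 (log2 difference −0.30 to −0.25, adjusted p = 0.0502 to 0.0877). ANGPTL4 by genotype in unexposed iR with D3 missed the threshold without iR_KOA_D3_NE replicate 3 or iR_WTA_D3_NE replicate 3 (log2 difference −0.26 to −0.23, adjusted p = 0.0851 to 0.120). SLC2A1, SLC2A3, HK1, PFKP, PGK1, ENO1, PKM, LDHA, SLC16A3, PDK1, BNIP3, MXI1 and P4HA2 were higher in both comparisons, by 0.12 (LDHA without D3) to 0.92 (PGK1 with D3). Of these PDK1 was tested because it reached 1 FPKM in 4 libraries. TPI1 (0.24), GAPDH (0.14) and PLOD2 (0.19) passed as higher with D3, and without D3 EPAS1 (0.13) and DDIT4 (0.22) did. With quantile normalization GAPDH was lower without D3 (−0.27, adjusted p = 0.0155) and did not pass with D3 (−0.067, adjusted p = 0.552), and ANKRD37 did not pass with D3 (−0.24, adjusted p = 0.0743). The GAPDH values under this normalization follow its rank alone, so they cannot decide whether GAPDH differed. PLOD2 by genotype in unexposed iR with D3 missed the threshold without iR_KOA_D3_NE replicate 2, iR_KOA_D3_NE replicate 3, iR_WTA_D3_NE replicate 2 or iR_WTA_D3_NE replicate 3 (log2 difference 0.17 to 0.19, adjusted p = 0.0661 to 0.0944). Without iR_WTA_NE replicate 2, DDIT4 was 0.20 (adjusted p = 0.0567). With a pseudocount of 0.1 ANGPTL4 was −1.35 without D3 and no longer passed with D3 (−0.69, adjusted p = 0.0595), and PFKFB4 was −0.67 without and −0.76 with D3. P4HA1, PFKL and ERO1A passed in neither in the main fit. With median-of-ratios scaling P4HA1 (0.227, adjusted p = 0.00841), PFKL (0.264, adjusted p = 0.00313) and PGAM1 (0.135, adjusted p = 0.0361) passed as higher with D3.

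D3 was compared with its absence in unexposed iR libraries of each genotype. In the wild type 14 members higher and 4 lower passed (45%, where 48.7% of all tested genes passed, 22.3% higher and 26.3% lower). In the knockout 24 members higher and 3 lower passed (67.5%, where 53.7% of all passed, 19.2% higher and 34.5% lower). The member medians were 0.071 and 0.21, against −0.015 and −0.059 over all tested genes. With median-of-ratios scaling the knockout counts were 27 higher and 2 lower, and 53.9% in place of 35.7% of all calls were higher. Of the 12 enzymes from GPI to PKM, 1 was higher and 3 were lower in the wild type, and 8 were higher and 1 lower in the knockout. The share of all FPKM in these enzymes was 1.42% ± 0.0469 without and 1.4% ± 0.0251 with D3 in the wild type, and 1.45% ± 0.0437 and 1.61% ± 0.0633 in the knockout (SD, n = 3). The mitochondrial share in the same groups was 21.1% ± 1.09 and 22.9% ± 0.435 in the wild type and 24.6% ± 0.305 and 29.4% ± 1.23 in the knockout, and its part was not tested.

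CA9 (chr9:35673928-35681159), the hypoxia-inducible carbonic anhydrase, moved most. CA9 was 0.912, 0.743 and 0.630 FPKM in iR_WTA_NE and 1.22, 2.42 and 1.53 in iR_WTA_D3_NE, and 0.700, 1.03 and 0.932 in iR_KOA_NE and 14.5, 18.5 and 13.7 in iR_KOA_D3_NE. The exposed D3 knockout held 8.44, 13.3 and 10.9 FPKM, and the other 24 libraries of the series lay between 0.437 and 2.42. The 6 high libraries are thus those with both the knockout and D3. The D3 difference was 0.61 ± 0.14 in the wild type (adjusted p = 0.000763) and 3.13 ± 0.14 in the knockout (adjusted p = 9.25e-16), the latter 17.5 times in mean FPKM. With a pseudocount of 0.1 the wild-type difference was 1.04. Between genotypes CA9 differed by 0.10 ± 0.14 without D3 (adjusted p = 0.542) and by 2.62 ± 0.14 with it (adjusted p = 7.84e-15). The test of the difference between the D3 effects gave 2.52 ± 0.20 (adjusted p = 7.52e-10). PGK1 (chrX:78104248-78129295) was 160.4, 149.8 and 155 and 150.4, 154 and 153 FPKM without and with D3 in the wild type, and 185, 186 and 192 and 285, 306 and 276 in the knockout. The wild-type libraries overlapped (−0.024, adjusted p = 0.671), and the knockout libraries did not (0.62, adjusted p = 2.76e-12). In the knockout 22.1% of all tested genes were higher with D3 without overlap. SLC16A3 was higher by 0.30 in the wild type and 0.89 in the knockout, BNIP3 by 0.54 in the knockout (adjusted p = 3.19e-09) against 0.073 in the wild type (adjusted p = 0.262), and LDHA by 0.34 (adjusted p = 2.32e-09) against 0.042 (adjusted p = 0.295).

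The D3 effect differed between genotypes for 16 of 40 members, 12 with a larger rise or smaller fall in the knockout and 4 the other way (40%, where 17.5% of all tested genes differed, 5.19% and 12.3%). With median-of-ratios scaling these were 15 and 2, and the share of such calls in the first direction among all genes moved from 29.6 to 47.9%. Besides CA9 the largest were DDIT4 (−0.71, adjusted p = 4.07e-05), PGK1 (0.64, adjusted p = 1.14e-08), SLC16A3 (0.59, adjusted p = 9.23e-05) and BNIP3 (0.47, adjusted p = 5.18e-05). DDIT4 was higher with D3 in the wild type (0.42, adjusted p = 9.88e-05) and lower in the knockout (−0.30, adjusted p = 0.00248). Of the enzymes from GPI to PKM, 5 of 12 differed, GPI, PFKP, TPI1, PGK1 and PKM, all in the first direction. With 1 library left out at a time, 13 to 15 members differed in place of 16. PLOD2, in the first direction, missed the threshold without any of 8 libraries (log2 difference 0.215 to 0.339). In the other direction ADM missed it without any of 7 libraries (−0.276 to −0.224) and BNIP3L without any of 9 (−0.322 to −0.236). ADM and BNIP3L did not pass with median-of-ratios scaling either (−0.219 and −0.244). Several members moved with D3 in the same direction in both genotypes. Some of them, BNIP3L, PLOD2 and PFKP included, are also among the 16 whose D3 effect differed. ALDOC was higher by 0.93 and 1.05 (wild type and knockout), NDRG1 by 0.80 and 0.94, BNIP3L by 0.82 and 0.51, and CA12 by 0.42 and 0.43. The 3 tested collagen hydroxylases were also higher in both, P4HA1 by 0.41 and 0.52, PLOD2 by 0.32 and 0.64, and P4HA2 by 0.25 and 0.21. P4HA2 with D3 in unexposed iR_KOA missed the threshold without iR_KOA_D3_NE replicate 2, iR_KOA_NE replicate 1 or iR_KOA_NE replicate 2 (log2 difference 0.18 to 0.19, adjusted p = 0.0552 to 0.0739). EPAS1 (−0.28 and −0.63) and PFKP (−0.43 and −0.15) were lower in both. PFKP with D3 in unexposed iR_KOA missed the threshold without iR_KOA_D3_NE replicate 3 or iR_KOA_NE replicate 3 (log2 difference −0.12 to −0.10, adjusted p = 0.0848 to 0.146). With median-of-ratios scaling PFKP in the knockout was −0.053, adjusted p = 0.398. ENO2 (−0.26) and TPI1 (−0.10) were lower in the wild type. MXI1 was higher in both, by 0.45 and 0.20. MXI1 with D3 in unexposed iR_KOA missed the threshold without iR_KOA_D3_NE replicate 2 or iR_KOA_NE replicate 3 (log2 difference 0.12 to 0.15, adjusted p = 0.101 to 0.187). TPI1 with D3 in unexposed iR_WTA missed the threshold without iR_WTA_D3_NE replicate 1, iR_WTA_D3_NE replicate 3, iR_WTA_NE replicate 1 or iR_WTA_NE replicate 3 (log2 difference −0.10 to −0.079, adjusted p = 0.0620 to 0.136). HIF1A (0.20), PDK1 (0.20) and ADM (0.37) were also higher in the wild type. With median-of-ratios scaling HIF1A (0.229, adjusted p = 0.00191) and ADM (0.184, adjusted p = 0.0168) passed as higher in the knockout as well. In the knockout EGLN3 (0.53), GPI (0.45), PFKL (0.35), ALDOA (0.33), PFKFB3 (0.32) and PKM (0.31) were higher too, as were SLC2A3 (0.28), TPI1 (0.21), HK1 (0.20), PDK1 (0.19) and GAPDH (0.16). Without iR_KOA_D3_NE replicate 2, SLC2A3 was 0.23 (adjusted p = 0.0590). With quantile normalization the GAPDH difference in the knockout was 0, a value that follows its rank alone and cannot decide whether GAPDH changed. PDK1 in the wild type did not pass with that normalization (0.13, adjusted p = 0.113).

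**Figure D5:**
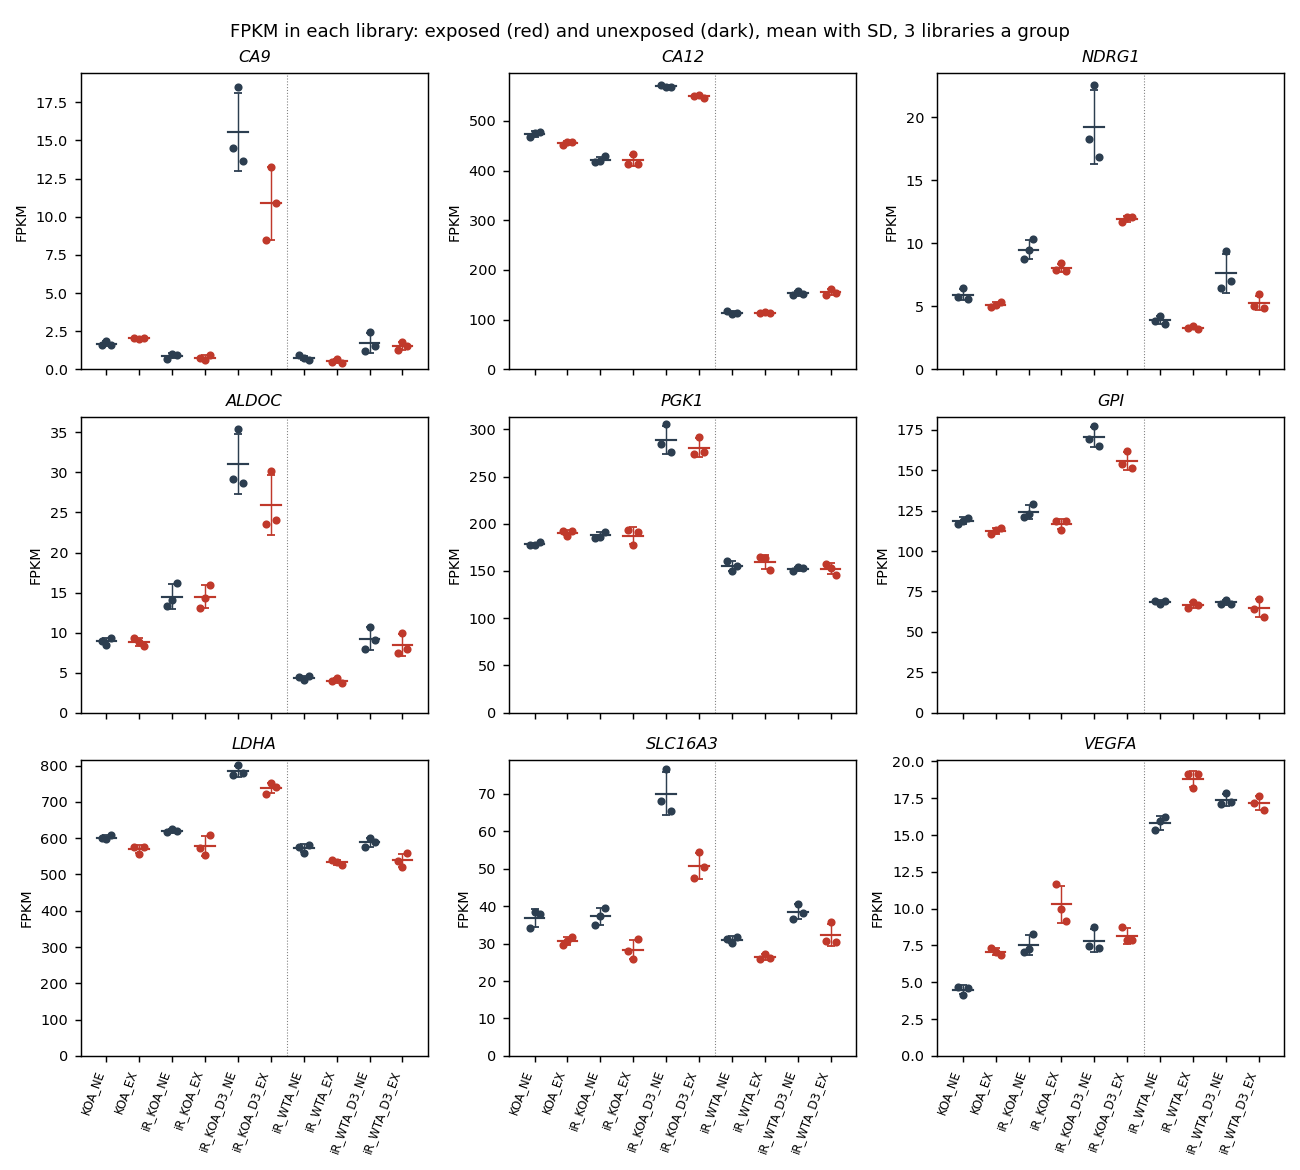
FPKM of 9 members in each library (points), with the mean and SD of each group, exposed in red and unexposed in dark, knockout left and wild type right of the dotted line. CA9 is high (8.44 to 18.5 FPKM) in the D3 knockout libraries and at most 2.42 elsewhere, CA12 separates the genotypes, and VEGFA is lower in the unexposed iR knockout than in the unexposed iR wild type.

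The iR condition was compared within the unexposed knockout. In that comparison 16 members higher and 3 lower passed (47.5%, where 38.5% of all tested genes passed, 18.7% higher and 19.8% lower), and the member median was 0.078 against −0.0010. The mitochondrial share was 28.4% ± 1.26 in KOA_NE and 24.6% ± 0.305 in iR_KOA_NE (SD, n = 3), and the 8 epithelial markers summed to 7270.0 to 7400.0 and 7760.0 to 7770.0 FPKM. The part of either was not tested. EPAS1 was 68.3, 68.8 and 68.5 FPKM in KOA_NE and 119.5, 122 and 122 in iR_KOA_NE, a difference of 0.81 ± 0.035 (adjusted p = 5.21e-15). Higher with iR were also DDIT4 (0.64, adjusted p = 5.31e-07), ALDOC (0.64, adjusted p = 4.48e-05), VEGFA (0.64, adjusted p = 5.59e-08) and NDRG1 (0.60, adjusted p = 2.71e-05). The lower ones were CA9 (−0.50, adjusted p = 0.00562), HK1 (−0.22, adjusted p = 0.00187) and CA12 (−0.17, adjusted p = 0.000107), and with a pseudocount of 0.1 CA9 was −0.85. HIF1A, SLC2A3, TPI1, PGAM1, ENO1, PDK1, BNIP3L, P4HA1, PLOD2 and KDM3A were higher by 0.14 (TPI1) to 0.46 (BNIP3L). P4HA1 with iR in unexposed KOA missed the threshold without KOA_NE replicate 1, KOA_NE replicate 3, iR_KOA_NE replicate 1 or iR_KOA_NE replicate 2 (log2 difference 0.16 to 0.19, adjusted p = 0.0671 to 0.118). With quantile normalization HIF1A did not pass (0.12, adjusted p = 0.209). ERO1A, which passed in none of the other comparisons between pairs of groups, was higher by 0.26, adjusted p = 0.00487. The unexposed iR knockout serves in the exposure, genotype, D3 and iR comparisons at once, so these are not separate observations of it.

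Other genes of the pathway were counted from 3 lists. Of 13 further HIF regulators 11 were tested, and the numbers higher and lower after exposure were 2 and 3, 2 and 5, 4 and 3, 1 and 3 and 2 and 3 in KOA, iR_KOA, iR_KOA_D3, iR_WTA and iR_WTA_D3. The same 3 led in each: CREBBP, a coactivator, was higher by 0.29 to 0.49, whereas ARNT2, a partner subunit, was lower (−0.33 to −0.46), as was CITED2, which competes for the coactivator (−0.30 to −0.54). Of 32 further HIF targets 29 were tested, and the counts were 13 and 8, 10 and 7, 11 and 10, 11 and 6 and 9 and 7 in the same order. PGF, placental growth factor, was higher by 1.75, 0.65, 0.54, 1.13 and 0.79, and PPP1R3C, a glycogen-targeting subunit, by 1.44 in KOA and 0.62 in iR_KOA, while HILPDA, a lipid droplet protein, was lower in KOA (−0.67). Of 28 further genes of glucose metabolism 26 were tested, with counts of 4 and 5, 2 and 8, 4 and 8, 2 and 5 and 3 and 9. The shares past the threshold were 45.5, 63.6, 63.6, 36.4 and 45.5% of the regulators, 72.4, 58.6, 72.4, 58.6 and 55.2% of the targets and 34.6, 38.5, 46.2, 26.9 and 46.2% of the glucose genes. For all tested genes they were 41.5, 35.3, 45.1, 28.6 and 41.8%. PDP1, a phosphatase that activates pyruvate dehydrogenase, was lower in all 5 (−0.42, −0.58, −0.57, −0.29 and −0.60), and HKDC1, a hexokinase homologue, was higher by 0.45 in KOA. Between genotypes the glucose list had 18 higher and 2 lower without D3 and 13 and 6 with it, led by PDK4 (2.08 and 2.09) and PDK3 (1.38 and 1.35), kinases that inhibit pyruvate dehydrogenase, and PDHA1 (1.15 and 1.27), a subunit of that enzyme. The target list had 15 higher and 7 lower without D3, with HMOX1, heme oxygenase, at 1.79, STC1 at 0.99 and ITGA5 at −0.98, and 16 and 7 with D3, and the regulators 0 and 4, then 2 and 6. With D3 in the knockout the targets had 13 higher and 4 lower, led by STC2 (−1.29) and TMEM45A (1.17), the glucose genes 6 and 11 and the regulators 2 and 3. With D3 in the wild type these were 13 and 5, 10 and 6, and 4 and 2, and with iR 8 and 6, 9 and 2, and 2 and 2. Of all tested genes 27.9% were higher and 37.4% lower by genotype without D3, 24.8% and 44.3% with D3, 19.2% and 34.5% for D3 in the knockout, 22.3% and 26.3% for D3 in the wild type and 18.7% and 19.8% for iR.

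In some groups 1 library held the highest FPKM of many members. In iR_KOA_D3_NE replicate 2 held the highest FPKM for 26 of 40 members, where it did so for 34.1% of all tested genes. It did so for 24 members in iR_WTA_D3_EX (35.6% of all), 22 in iR_WTA_D3_NE (32.4%) and 18 in iR_KOA_D3_EX (25.2%). CA9 and NDRG1 were highest in replicate 2 in 7 of 10 groups, SLC16A3 in 6 and ALDOC in 5. In unexposed KOA and iR_KOA replicate 3 was highest for 22 members each (40.8% and 44.5% of all tested genes). In the other 4 groups the library that was highest for most members was so for 15 to 18 of 40, where it, or each of a tied pair, was highest for 26.5 to 43% of all tested genes. Members of one pathway are not independent, and what the libraries with one number share was not tested.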

How the data were processed

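RNA-seq of 30 A549 libraries in 10 groups of 3 was used. The labels' protocols give TRIzol extraction, DNase treatment, oligo(dT) enrichment and random six-base priming. Of tools and builds, HTSeq, HISAT2, fastp and GRCh38 stand in the submitters' processing notes, with no versions. Not given in the sources used here are annotation, gene lengths, strand setting and filters. The authors' deposited table gives FPKM, 1 value for each gene and library. Columns were matched to samples by name, and 6 value columns that matched no sample were not used. Steps between low values gave whole numbers of reads for all 26801 genes (tolerance 0.01), hence the totals, 34620432 to 38939336 reads per library.

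Deposited FPKM values were turned into log2(FPKM + 1), which understates differences of low genes, and all 10 groups were fitted in 1 model with limma 3.58.1 in R 4.3.3 (mean-variance trend, 20 residual degrees of freedom, two-sided, no replicate block). P-values were adjusted by the Benjamini-Hochberg method within each of 16 comparisons over 12086 genes that reached 1 FPKM in 3 or more libraries. The fit was tested on simulated data. FPKM does not correct for composition, so other scalings were tried, beside other pseudocounts, filters and fits, and each library was left out in turn.

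The members and lists were chosen with earlier results of these data known. Named are up to 6 rises and 6 falls in each exposure comparison, 5 of each in others and 5 members in interactions, and up to 3 genes of each pathway list. Per-library values are given for members past the threshold in at least 4 of 5 exposure backgrounds and for the 3 with the largest genotype difference, and other members were named to account for all 42. One gene of the lists that this rule names is not reported here. Of the marker names SFTPA1 and CD3E were not found.

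Same-numbered libraries were checked for shared deviations from their group means: correlations ran from −0.325 to 0.306, and in 1 of 10 comparisons, exposure in iR_KOA_D3, all 3 pairs were over 0.1 (0.115, 0.156 and 0.168). The main fit did not take the numbers as pairs there either, and its p-values ignore this. A replicate block was tried that is shared by all 10 groups, which is not a paired test of that comparison alone. With the block that comparison had 24 members past the threshold in place of 23, ALDOC being added (−0.26, adjusted p = 0.0377). No paired test of that comparison alone was run. Gene positions and promoters are from RefSeq, GRCh38.p14.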

Additional observations from a re-analysis of the deposited data

Results flagged for a closer look

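Members whose effect differed between backgrounds by a test of the difference itself (limma, log2 scale, first-named background minus second) were singled out. Exposure effects between knockout and wild type with D3 differed for PFKFB3 (−0.33, adjusted p = 0.00111) and EPAS1 (0.20, adjusted p = 0.0251). Exposure effects between iR_KOA and KOA differed for SLC2A3 (−0.64, adjusted p = 0.00208), DDIT4 (−0.62, adjusted p = 0.000811), P4HA1 (−0.54, adjusted p = 0.000969), P4HA2 (−0.37, adjusted p = 0.0317) and SLC2A1 (0.27, adjusted p = 0.0148). Exposure effects between iR_KOA_D3 and iR_KOA differed for EGLN3 (−0.38, adjusted p = 0.0296), VEGFA (−0.35, adjusted p = 0.0370) and EPAS1 (0.19, adjusted p = 0.0261). Exposure effects between iR_WTA_D3 and iR_WTA differed for ADM (−0.45, adjusted p = 0.00937), DDIT4 (−0.43, adjusted p = 0.0444) and PFKFB4 (−0.38, adjusted p = 0.0351). D3 effects in unexposed libraries differed between knockout and wild type for CA9 (2.52, adjusted p = 7.52e-10), DDIT4 (−0.71, adjusted p = 4.07e-05), PGK1 (0.64, adjusted p = 1.14e-08), SLC16A3 (0.59, adjusted p = 9.23e-05) and BNIP3 (0.47, adjusted p = 5.18e-05).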

How the results depend on the processing

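Of 1821 alternative values for 123 named member differences, 1704 kept direction and side of the threshold, 117 kept direction and no longer passed, and 0 reversed. These 123 were picked as the largest that passed in the main fit, which favours that outcome. Among all members called, 6 of 15 in iR_KOA, 8 of 23 in iR_KOA_D3 and 3 of 3 for exposure by D3 in the knockout missed the threshold without some library. By genotype without D3, 2 of 32 did. GAPDH by genotype with D3, outside these 123, turned from 0.14 to −0.067 with quantile normalization, where its value follows its rank alone. The count of members past the threshold moved by more than 1.5 times in 6 comparisons. Exposure in iR_KOA gave 8 in place of 15 with only the groups compared, where all tested genes gave 2131 in place of 4272. Exposure by genotype in iR gave 1 in place of 0 with a pseudocount of 0.1 (0 to 1 without 1 library), and with D3 it gave 1 in place of 2 with median-of-ratios scaling (1 to 3 without 1 library). Exposure by iR in the knockout gave 3 to 6 in place of 5 without 1 library. Exposure by D3 in the iR knockout gave, in place of 3, 1 without a filter, 5 with quantile normalization, 5 with the replicate block, 1 with only the groups compared and 0 to 5 without 1 library. Exposure by D3 in the iR wild type gave, in place of 3, 1 without a filter, 0 with only the groups compared and 1 to 3 without 1 library. The cause was not tested. Over all tested genes, the interactions with exposure gave 17, 106, 158 and 52 calls with only the groups compared, in place of 65, 288, 500 and 202 (genotype, genotype with D3, D3 in knockout, D3 in wild type), and 30 to 74, 170 to 504, 245 to 910 and 88 to 506 without 1 library. The first gave 40 with a pseudocount of 0.1.

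The replicate number pairs libraries by the correlation criterion in 1 comparison only. Elsewhere that criterion was not met, but in 16 of 30 pairs over all 10 comparisons the correlation was best with the own number. For exposure in KOA all 3 pairs were (0.087, 0.065 and 0.119), and for D3 no pair was in either genotype. Pairs 2 and 3 reached 0.267 and 0.306 for exposure in iR_WTA_D3. What same-numbered libraries share was not tested. With the block iR_KOA had 17 members past the threshold in place of 15, iR_KOA_D3 24 in place of 23 and iR_WTA_D3 21 in place of 20, and the other 7 counts between pairs of groups were equal.

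Scaling shifted the median of all genes by at most 0.088. ANGPTL4 and ANKRD37 rest on few reads, 6 to 89 and 18 to 87 per library.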
